A study of Mus musculus with 8 samples.

Results

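The genes described here encode the proteins of the cytosolic ribosome. They were chosen by symbol, as every Rpl or Rps symbol followed by a digit and Rplp0 to Rplp2, without pseudogene (-ps) symbols and without the Rps6k kinases. This gave 81 of the 23091 genes listed, with 50 Rpl or Rplp symbols and 31 Rps symbols. Cells of the yolk sac outside the embryo, from C57BL/6N mice of wild type genotype at embryonic day 9.5, were sorted singly and counted with mCEL-Seq2, which tags each transcript near its 3' end. The A1/A2 libraries (4) hold cells labelled A1 and A2, which are myeloid precursors known as Kit-positive and as Cx3cr1-positive, and the EMP libraries (4) hold cells labelled EMP, the erythromyeloid progenitors upstream of them. Both kinds came from CD45-stained cells, all 8 libraries carry the batch label A, and no treatment was given. The labels do not say whether libraries came from separate litters, so p-values measure the spread between libraries, which may be technical.

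A ribosome is built from ribosomal RNAs and one copy of nearly every ribosomal protein, so the genes for these proteins are usually transcribed in step and rank among the most abundant transcripts of growing cells. Their mRNAs are known as TOP mRNAs, because they begin with a run of C and T bases through which the mTOR pathway and the protein Larp1 set their translation. Blood formation is known to be sensitive to their dose, and in humans mutations of several of them cause Diamond-Blackfan anaemia, a failure of red cell formation.

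Start sequences are shown because this run is the feature that the members are known to share. RefSeq start windows (GRCm38.p6) were found for 61 of the 81 members. A run of at least 5 C or T bases covering the annotated start was present in 18 of the 61 (29.51%), against 2690 of all 27025 genes in the table (9.954%). The motif CTTTC, on either strand of the 30-base window, was found in 17 members (27.87%) and in 1983 of all genes (7.338%). Below, 30 bases around the start are given 5′ to 3′ with the run over the start in capitals. They lie at chr17:33955651-33955680 (Rps18, minus strand), chr17:27635230-27635259 (Rps10, minus), chr9:120571502-120571531 (Rpl14, plus), chr4:86857353-86857382 (Rps6, minus), chr5:115559452-115559481 (Rplp0, plus) and chr9:64173372-64173401 (Rpl4, plus). Rplp0 and Rpl4 have no such run at the annotated start. Only the first listed start of each gene was used. Runs that miss that base, as the run upstream of it in Rpl4, were not counted.
Rps18: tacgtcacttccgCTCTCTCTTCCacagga
Rps10: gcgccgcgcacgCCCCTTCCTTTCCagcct
Rpl14: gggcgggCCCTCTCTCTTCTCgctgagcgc
Rps6: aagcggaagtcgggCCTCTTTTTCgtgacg
Rplp0: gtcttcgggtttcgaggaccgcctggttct
Rpl4: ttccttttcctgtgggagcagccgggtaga

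Wells with at least 1000 transcripts were kept, 568 of A1/A2 libraries (127 to 166 a library) and 655 of EMP libraries (147 to 177). In units of 1000000 transcripts, they summed to 2.56 to 3.56 per A1/A2 library and 3.89 to 5.42 per EMP library, and the median well held 6153 and 20369 transcripts. The 8 macrophage markers summed to 737 to 976 transcripts per 1000000 in A1/A2 libraries and 52.0 to 89.8 in EMP libraries, and 10 endoderm markers to 8725 to 15369 and 15143 to 22734. Mitochondrially encoded transcripts made up 20.01 ± 1.34% and 25.5 ± 1.43% (SD, n = 4 libraries each). Wells were classed by transcripts, as high in Apoa1 (an apolipoprotein made by yolk sac endoderm, at least 0.5% of the well's transcripts) and otherwise by Kit and Cx3cr1. These classes replace gates, which the labels do not give per well. Of the wells near that threshold, 4 in A1/A2 libraries and 21 in EMP libraries lay at 0.5 to 0.55%, and 12 and 45 at 0.45 to 0.5%. In the high-Apoa1 wells the endoderm markers, Apoa1 among them, reached 30026 to 47060 per 1000000 in A1/A2 libraries and 28405 to 34805 in EMP libraries. They were found in the other classes too, so the classes differ in degree. They reached 5304 to 11689 in A1/A2 wells with Cx3cr1 and no Kit, and 10162 to 17348 in EMP wells with Kit and no Cx3cr1. In wells with none of the 3 marks they reached 13654 to 17647 in A1/A2 and 19069 to 25131 in EMP libraries. Wells carry the same numbers in every library, so a shared well number is not a shared cell.

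Over all kept wells the members held 6.23% of transcripts. Their summed share was 7.95, 6.63, 7.13 and 7.87% in A1/A2 libraries 1 to 4, against 5.68, 5.09, 5.50 and 5.91% in EMP libraries 1 to 4. The groups did not overlap, with means of 7.39 ± 0.63% and 5.54 ± 0.34% (SD, n = 4 each). The large subunit symbols held 4.24 ± 0.37% and 3.21 ± 0.19%, and the small subunit symbols 3.16 ± 0.27% and 2.34 ± 0.16%, so the means of both parts were higher in A1/A2 libraries. As a share of transcripts not encoded in mitochondria, the means were 9.25% and 7.44%. When every well counted equally they were closer together, at 5.73% and 5.19%, and the groups overlapped. A1/A2 libraries 2 and 3 then had 5.40 and 5.37%, under the 5.45% of EMP library 3. No test was made on a summed share.

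The share differed between classes of wells within both kinds of library, and so did the totals of the wells. In A1/A2 libraries the median total was 32915 in Cx3cr1 wells, 51053 with both genes, 11098 in Kit wells and 2805 with none of the 3 marks. In EMP libraries it was 27256.5 in Kit wells, 38556 with both genes and 8071 with none of the marks. The part of these totals in the differences between classes was not tested. In A1/A2 libraries the share was 8.76, 7.49, 8.005 and 8.44% in wells with Cx3cr1 and no Kit (30 to 43 wells a library). It was 8.63 ± 0.43% in wells with both genes (7 to 15 wells) and 7.10 ± 0.92% in wells with Kit and no Cx3cr1 (4 to 8 wells). High-Apoa1 wells were lower, at 6.06, 5.49, 6.45 and 6.22% (3 to 9 wells), and wells with none of the 3 marks lowest, at 5.17 ± 0.34%. In EMP libraries the share was 6.58, 5.99, 6.26 and 7.02% in wells with Kit and no Cx3cr1 (52 to 70 wells). It was 8.37, 5.70, 5.90 and 5.42% in wells with both genes (4 to 9 wells), a mean of 6.35%. High-Apoa1 wells had 5.09, 4.91, 4.37 and 4.79% (3 to 15 wells) and wells with none of the 3 marks 4.39 ± 0.18%. Where all 4 libraries had enough wells, the means of wells with Kit, Cx3cr1 or both lay above those of high-Apoa1 wells in both kinds of library, although A1/A2 Kit wells overlapped A1/A2 high-Apoa1 wells. Wells with both genes had the highest mean in A1/A2 libraries but a mean under that of Kit wells in EMP libraries, by less than their SDs. EMP wells with Cx3cr1 and no Kit were too few, with 3 wells in a single library and fewer in the others.

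Within each class that had enough wells in all 8 libraries, the mean share was higher in A1/A2 than in EMP libraries. In high-Apoa1 wells the means were 6.06 ± 0.41% and 4.79 ± 0.30%, and in wells with none of the 3 marks 5.17 ± 0.34% and 4.39 ± 0.18%, with no overlap in either class. In Kit wells they were 7.10 ± 0.92% and 6.46 ± 0.44%, and in wells with both genes 8.63 ± 0.43% and 6.35 ± 1.36%, and there the groups overlapped. The median total of the wells differed between the kinds as well, at 62139 and 24843 transcripts in high-Apoa1 wells and 2805 and 8071 in wells with none of the marks. What part these totals have in the shares was not tested.

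**Figure D1:**
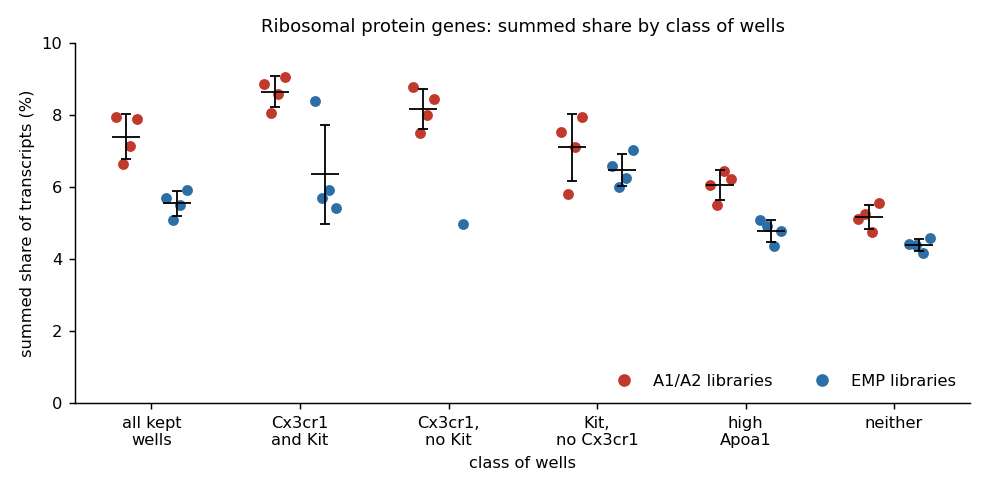
Summed share of the 81 ribosomal protein genes (percent of transcripts) by class of wells, with a point for each library that had at least 3 wells and, where 4 libraries did, the mean and SD as a bar. A1/A2 libraries lie above EMP libraries in all kept wells, in high-Apoa1 wells and in wells with none of the 3 marks, and overlap them in Kit wells and in wells with both genes.

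By well total, the mean share was highest in wells of 20000 to 60000 transcripts in both kinds of library, and the groups of wells below and above were ordered differently in each. In wells of 1000 to 5000 transcripts it was 4.88 ± 0.47% in A1/A2 libraries and 3.78 ± 0.30% in EMP libraries. In wells of 5000 to 20000 the order turned, at 4.38 ± 0.91% and 5.30 ± 0.84%, with overlapping groups. In wells of 20000 to 60000 it was 8.05 ± 0.46% and 5.97 ± 0.61%, and above 60000 it was 7.81 ± 1.14% and 5.21 ± 0.42%, with no overlap in either. Up to 60000 the means of mitochondrially encoded transcripts moved the opposite way. In A1/A2 wells they took 29.6 ± 3.22% at 1000 to 5000, 36.5 ± 6.18% at 5000 to 20000 and 18.1 ± 1.94% at 20000 to 60000. In EMP wells of the same totals they took 41.5 ± 1.04%, 31.9 ± 5.73% and 24.6 ± 1.59%. Above 60000 their means were lower along with the member share, at 17.3 ± 1.93% in A1/A2 and 24.0 ± 2.29% in EMP wells. Their part in the share was not tested.

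Most members were higher in wells of 20000 to 60000 than in the shallowest wells. The same counts over all genes are not given here, so whether this is particular to the members cannot be told. Of the 69 members with at least 100 transcripts per 1000000, 66 were higher in wells of 20000 to 60000 than in wells of 1000 to 5000 in all 4 A1/A2 libraries, with a median ratio of 1.85, and 69 were higher in all 4 EMP libraries, with a median ratio of 1.68. Against wells of 5000 to 20000, 69 were higher in all 4 A1/A2 libraries (median ratio 1.85) and 2 in all 4 EMP libraries (median ratio 1.14), and the difference between the kinds was not tested. In A1/A2 libraries the ratio was largest for Rplp0 (3.35), the scaffold of the ribosomal stalk, and smallest for Rpl5 (1.002), which carries 5S RNA into the large subunit. Rplp0 stood at 971 ± 325 per 1000000 in A1/A2 wells of 20000 to 60000 and 290 ± 54.9 in those of 1000 to 5000. Rpl4, a core protein of the large subunit, stood at 2509 ± 79.8 and 2487 ± 655 (SD, n = 4 each). Members thus differed widely in these ratios. The make-up of the wells differed with total as well. Wells with none of the 3 marks were 217 of 262 A1/A2 wells of 1000 to 5000 and 29 of 121 of 20000 to 60000. In EMP libraries they were 138 of 150 and 85 of 247. The part of this make-up in the ratios was not tested. Above 60000, 48 of the 69 members were lower than in wells of 20000 to 60000 in all 4 EMP libraries, and 5 in all 4 A1/A2 libraries.

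**Figure D2:**
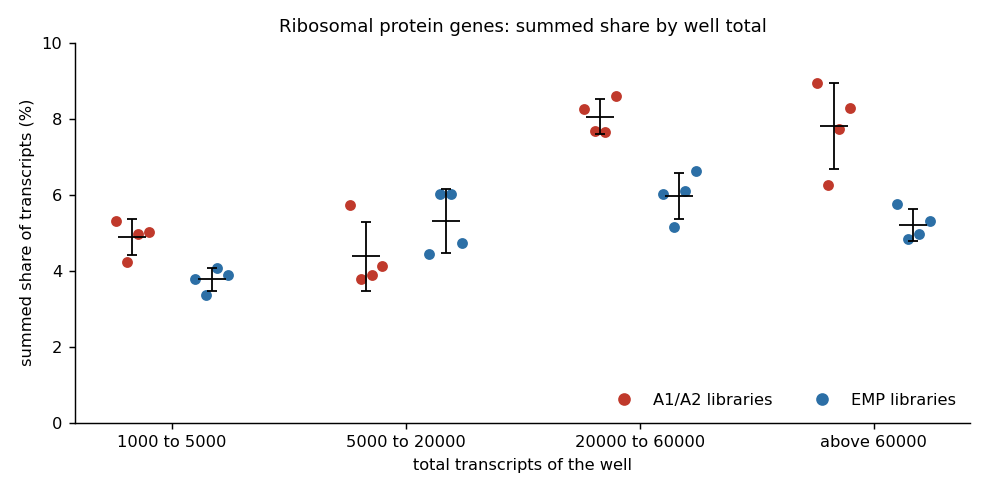
Summed share of the ribosomal protein genes (percent of transcripts) in wells grouped by total, with a point per library and the mean and SD of 4 libraries as a bar. A1/A2 libraries lie above EMP libraries in 3 of the 4 groups of wells and overlap them in wells of 5000 to 20000 transcripts.

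The order of the classes differed with well total in A1/A2 libraries. In wells of 20000 to 60000, pooled over libraries, the share was 8.77% in A1/A2 wells with Cx3cr1 and no Kit (65 wells) and 7.02% in EMP wells with Kit and no Cx3cr1 (134 wells). High-Apoa1 wells of that depth had 5.46% in A1/A2 libraries, from 2 wells, and 4.65% in EMP libraries, from 15 wells. Wells with none of the 3 marks had 5.65% (29 wells) and 4.47% (85 wells), so that in A1/A2 libraries they lay above the 2 high-Apoa1 wells. In A1/A2 wells of 5000 to 20000, Cx3cr1 wells had 5.65% (23 wells), under the 6.18% of high-Apoa1 wells (5 wells). In EMP wells of those totals, Kit wells had 7.22% (61 wells) and high-Apoa1 wells 4.94% (11 wells). In A1/A2 wells of 1000 to 5000, Cx3cr1 wells had 5.14% (34 wells) and wells with none of the 3 marks 4.80% (217 wells). In EMP wells of 1000 to 5000, Kit wells had 5.69% (5 wells) and wells with none of the marks 3.64% (138 wells). Pooled values have no replicate error.

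Levels differed widely among the members. Since a transcript is counted once near its 3' end, levels are compared without division by length. Over all kept wells 24 members reached 1000 transcripts per 1000000, 45 lay between 100 and 1000, and 12 lay under 100, with a median of 690 and a highest level of 2344 for Rpl4. The 10 most abundant, with Rpl4, Rpl23, Rps23, Rps20, Rpl5, Rps9, Rps6 and Rps3a1 among them, held 30.5% of all member transcripts. Genes with a known role in one tissue were near 0: Rpl3l, the form of Rpl3 in muscle, had 0.126 per 1000000, Rpl39l, known from testis, 0.596, and Rpl10l, also known from testis, 1.16.

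Several core genes were nearly uncounted, while a symbol of near-identical sequence was abundant. Rps27, a small subunit protein, had 2.39 per 1000000 and Rps27rt, an intronless copy on chromosome 9, 354. Rpl10, which forms the last step of large subunit assembly, had 22.8 and Rpl10-ps3 446, Rpl27 had 24.3 and Rpl27-ps3 570, and Rpl9 had 32.3 and Rpl9-ps6 766. Rpl23a, at the exit of the peptide tunnel, had 71.8 and Rpl23a-ps3 1328. The coding bases of gene and copy are identical for Rps27 (255 bases), Rpl10 (645) and Rpl27 (411), and differ at 1 of 579 for Rpl9 and 4 of 471 for Rpl23a. The sources used here do not state how reads shared by such pairs were assigned, so the level of either symbol alone is uncertain. Rps12 (1.19 per 1000000), Rpl35 (3.23) and Rplp2 (47.0) were low as well, and of their last 300 transcript bases, 97.2, 96.0 and 80.1% of 50-base windows recur in another gene (GENCODE M21). The 15 pseudogene symbols held 0.53% of transcripts, and the listed core genes outside the pattern, with Rpsa, Fau and Gnb2l1 (now Rack1) among them, 0.31%.

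Coding sequences of a pair with no difference and of a pair that differs are shown next. They compare the genes of each pair only, while transcripts are counted near the 3' end. They thus do not set alone which values can be read as a gene's own. Of the 3' end windows of Rpl22l1, 61.6% recur in other genes. The last 60 coding bases of Rps27 (chromosome 3, minus strand) and Rps27rt (chromosome 9, minus strand) have no difference. Those of Rpl22 (chromosome 4, plus strand) and its paralog Rpl22l1 (chromosome 3, plus strand), coding bases 328 to 387 of both, differ at 18 positions, which are in capitals (GENCODE M21, GRCm38). Over their 387 coding bases Rpl22 and Rpl22l1 are 67.96% identical.
Rps27: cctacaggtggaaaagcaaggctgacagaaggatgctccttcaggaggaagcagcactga
Rps27rt: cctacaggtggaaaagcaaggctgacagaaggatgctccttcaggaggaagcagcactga
Rpl22: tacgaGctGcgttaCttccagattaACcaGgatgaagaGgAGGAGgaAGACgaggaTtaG
Rpl22l1: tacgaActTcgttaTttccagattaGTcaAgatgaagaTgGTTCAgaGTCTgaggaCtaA

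The first comparison, of all kept wells, asked which members differ between A1/A2 and EMP libraries, labelled for the later and the earlier stage of the lineage. Most kept wells had none of the 3 marks, 329 of 568 in A1/A2 and 350 of 655 in EMP libraries. It therefore compares mixed wells and not the stages alone. Of the 76 members tested, 59 were higher in A1/A2 libraries and 0 lower at 5% (edgeR quasi-likelihood test on sums per library, Benjamini-Hochberg adjusted over all 11144 genes tested). Of all genes tested, 17.3% were higher and 15.4% lower. At an unadjusted p under 0.05 edgeR gave 0 members lower, and DESeq2 called 59 higher and 0 lower. The median log2 fold change was 0.52 over the members and -0.02 over all genes. The 5 members not tested for low counts were Rps12, Rps27, Rpl3l, Rpl39l and Rpl10l. The members called higher ranged from 0.28 (Rpl31) to 1.78 (Rpl27). The medians of the subunits were close, at 0.50 for 47 large subunit symbols and 0.53 for 29 small subunit symbols. CPM below means transcripts per 1000000 after TMM scaling.

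The 3 stalk proteins, which bind the translation factors to the ribosome, were all higher, and Rplp2 and Rplp0 were among the members with the largest differences. Rplp0 had 707, 507, 1035 and 1088 CPM in A1/A2 libraries 1 to 4, against 342, 238, 357 and 330 CPM in EMP libraries. The groups did not overlap, A1/A2 library 2 was the lowest of its group, and the log2 fold change was 1.40 ± 0.23 (SE, edgeR adjusted p = 0.0021). Rplp1 had 1170, 914, 1393 and 1451 CPM, against 702, 579, 737 and 636 CPM in EMP libraries, a change of 0.89 ± 0.14 (edgeR adjusted p = 0.00075). Rplp2 had 53.1, 60.7, 104 and 107 CPM, against 29.6, 28.6, 15.4 and 29.1 CPM in EMP libraries, a change of 1.67 ± 0.28 (edgeR adjusted p = 0.0020). In all 3, A1/A2 libraries 3 and 4 stood above libraries 1 and 2.

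Among small subunit proteins, Rps18, a protein of the head of the subunit, had 432, 294, 422 and 556 CPM in A1/A2 libraries, against 214, 158, 168 and 206 CPM in EMP libraries (log2 fold change 1.19 ± 0.17, edgeR adjusted p = 0.00065). The Diamond-Blackfan genes Rps19 and Rps10 behaved alike. Rps19 had 843, 617, 816 and 864 CPM in A1/A2 libraries, against 457, 346, 356 and 406 CPM in EMP libraries (1.004 ± 0.12, edgeR adjusted p = 0.00014). Rps10 had 609, 474, 638 and 648 CPM, against 331, 273, 252 and 294 CPM in EMP libraries (1.04 ± 0.12, edgeR adjusted p = 7.3e-05). None of these groups overlapped. Of 10 genes known from that disease in humans, 9 were higher (Rps19, Rps24, Rps26, Rps7, Rps10, Rpl35a, Rpl26 and Rpl11 among them) and Rpl5 was not, with a median log2 fold change of 0.73.

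**Figure D3:**
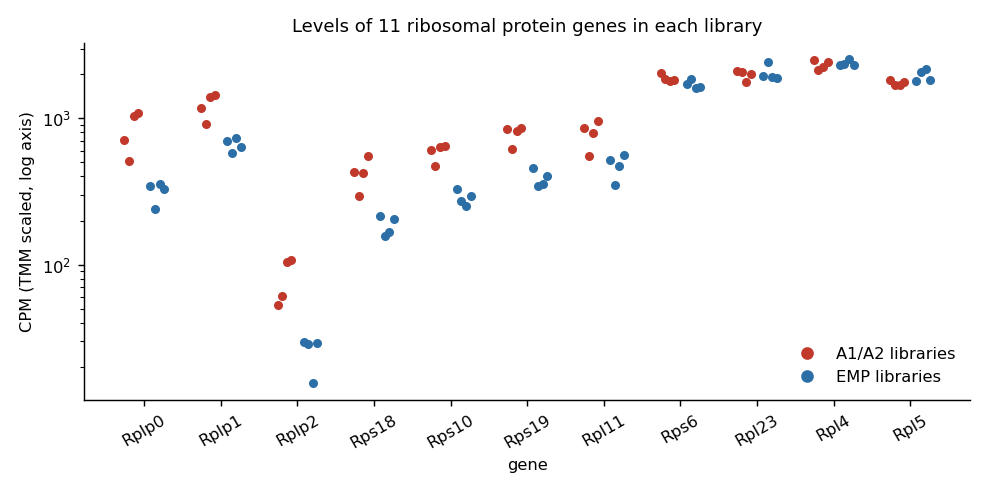
Levels of 11 ribosomal protein genes in each library, as CPM of TMM-scaled sums on a log axis, with A1/A2 libraries left of EMP libraries and a point per library. The groups are apart for the stalk genes Rplp0, Rplp1 and Rplp2 and for Rps18, Rps10 and Rps19, and overlap for Rpl11, Rps6, Rpl23, Rpl4 and Rpl5.

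Rpl5 and Rpl11 go into the large subunit together, as a complex with 5S RNA, and free of ribosomes both are known to bind the p53 regulator Mdm2. Here Rpl11 was called and Rpl5 was not. Rpl11 had 852, 550, 789 and 961 CPM in A1/A2 libraries, against 516, 348, 474 and 564 CPM in EMP libraries (log2 fold change 0.73 ± 0.18, edgeR adjusted p = 0.011), with library 2 of A1/A2 below library 4 of EMP. Rpl5 had 1833, 1679, 1694 and 1760 CPM, against 1795, 2081, 2173 and 1822 CPM in EMP libraries (-0.18 ± 0.09, edgeR adjusted p = 0.15). The difference between these fold changes was not tested.

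Most of the most abundant members gave no call. Rpl4 had 2520, 2136, 2248 and 2435 CPM in A1/A2 libraries, against 2322, 2361, 2547 and 2304 CPM in EMP libraries, with overlapping groups (log2 fold change -0.03 ± 0.08, edgeR adjusted p = 0.81). Rpl23 (-0.03 ± 0.10), Rps20 (0.06 ± 0.10), Rps3a1 (0.07 ± 0.08), Rps6 (0.15 ± 0.08), Rps23 (0.15 ± 0.08) and Rps9 (0.22 ± 0.10) did not pass 5% either.

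Fold change was thus graded by level. The 24 members at or above 1000 transcripts per 1000000 had a median log2 fold change of 0.20, with 9 called higher. The 41 members at 300 to 1000 had a median of 0.65, and all 41 were called. The 11 tested members under 300 had a median of 1.19, with 9 called. The medians of other genes in the same ranges were -0.04 (12 of 62 higher), -0.02 (47 of 265) and -0.02 (1813 of 10741). Across the 76 members, Spearman's rho between fold change and level was -0.73, as a description over genes that share their libraries. With the transcript length it was -0.29, and with the share of the 3' end that recurs in other genes 0.21. Members with a C or T run over the start had a median of 0.65 (17 tested, 15 higher), and members with a start window but no such run 0.44 (39 tested, 28 higher). The difference did not recur in every comparison: the medians with and without the run were 0.60 and 0.47 for A1/A2 Cx3cr1 wells over EMP Kit wells, 0.44 and 0.44 for high-Apoa1 wells, 0.38 and 0.44 for A1/A2 Cx3cr1 over high-Apoa1 wells, and 0.24 and 0.34 for EMP Kit over high-Apoa1 wells.

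**Figure D4:**
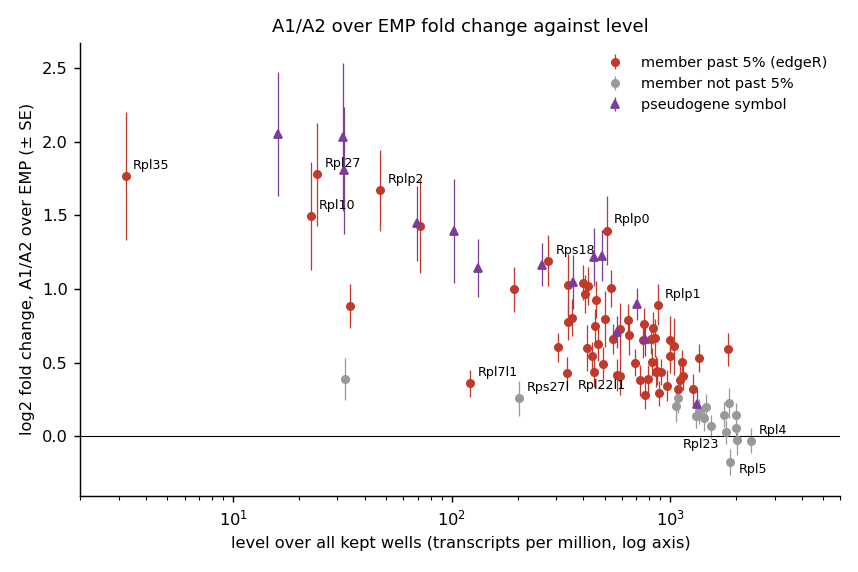
Log2 fold change of A1/A2 over EMP libraries (edgeR, with its SE as a bar) against level over all kept wells on a log axis, for the 76 tested members and 14 tested pseudogene symbols. The fold change is near 0 for the most abundant members, such as Rpl4 and Rpl5, and largest for symbols under 100 per 1000000, such as Rpl27 and Rpl35.

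The largest fold changes belonged to symbols of low level whose 3' ends largely recur in other genes. Rpl27 had 52.7, 16.9, 42.2 and 63.1 CPM in A1/A2 libraries, against 15.8, 9.52, 13.0 and 12.5 CPM in EMP libraries (log2 fold change 1.78 ± 0.35, edgeR adjusted p = 0.0047). Rpl35 (1.76 ± 0.43), Rplp2 (1.67, given above), Rpl10 (1.49 ± 0.37) and Rpl23a (1.42 ± 0.32) followed, at levels of 3.23 to 71.8 transcripts per 1000000. Pseudogene symbols behaved alike: 13 of the 14 tested were higher in A1/A2 libraries, with a median of 1.19. Rps18-ps3 had 385, 297, 422 and 483 CPM in A1/A2 libraries, against 185, 167, 147 and 209 CPM in EMP libraries (1.17 ± 0.15). When the counts of pseudogene symbols, Rps27rt and Rpl6l were added to the genes they copy, 60 of 76 members were higher, with a median of 0.52.

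Several paralogs were called together with their partners. Rpl22l1, a paralog of Rpl22, had 466, 370, 351 and 433 CPM in A1/A2 libraries, against 299, 277, 303 and 322 CPM in EMP libraries (0.43 ± 0.10, edgeR adjusted p = 0.0083). Of the windows at its 3' end, 61.6% recur in other genes. Rpl22 was higher as well (0.41 ± 0.13, edgeR adjusted p = 0.033). Rpl36a (0.44 ± 0.10), Rpl36al (0.60 ± 0.10), Rpl39 (0.49 ± 0.11) and Rpl7l1 (0.36 ± 0.09) were higher too. Rps27l, a p53 target, was not called (0.26 ± 0.12, edgeR adjusted p = 0.11), nor were Rpl3 (0.21 ± 0.11) and Rpl7 (0.14 ± 0.08). Rps19bp1, which binds Rps19 and is no ribosomal protein although its symbol fits the pattern, was higher (0.89 ± 0.15). Of the core genes outside the pattern, Gnb2l1 was higher (0.61 ± 0.11), and Rpsa was not called (0.14 ± 0.10).

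Other translation genes had smaller medians. Of 37 translation factors 15 were higher and 0 lower, with a median log2 fold change of 0.23. The initiation factors Eif1 (0.69 ± 0.11), Eif3f (0.63 ± 0.13) and Eif4a1 (0.61 ± 0.12) were highest. Of 75 tested mitochondrial ribosomal protein genes 25 were higher and 0 lower (median 0.21). Of 9 regulators Rps6ka1 (0.95 ± 0.11) and Rptor (0.57 ± 0.16), a subunit of the mTOR complex, were higher, while Mtor (-0.08 ± 0.12) and Larp1 (0.16 ± 0.09) were not called. Of 15 mitochondrially encoded genes 0 were higher and 9 lower (median -0.35). The count of members differed with the wells used. It was 11 of 69 tested when each well was thinned to 1000 transcripts (median 0.24). In wells of 1000 to 5000 it was 1 of 68 (median 0.20), and in wells of 5000 to 20000 it was 11 of 72 (median 0.17). In wells of 20000 to 60000 alone 57 of 75 were higher (median 0.53). The medians over all genes were -0.01, 0.01, -0.002 and 0.0006 in these settings. How many of all genes were called in such settings, here and below, is not given. Whether a loss of calls is particular to the members thus cannot be told.

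The A1/A2 wells with Cx3cr1 and no Kit were then set against the EMP wells with Kit and no Cx3cr1, the class that marks each kind of library. Of 75 members tested 54 were higher in the A1/A2 class and 1 lower (edgeR, adjusted over 9641 genes, of which 15.8% were higher and 13.4% lower). The median was 0.51, against -0.02 over all genes. The member that was lower was Rpl5, with 1970, 1835, 1931 and 1864 CPM in A1/A2 libraries, against 2046, 2419, 2518 and 2203 CPM in EMP libraries (-0.27 ± 0.09, edgeR adjusted p = 0.025). Leaving out single libraries gave 0 or 1 members lower. The 5 highest were Rplp2 (1.71 ± 0.28), Rpl27 (1.58 ± 0.37), Rpl10 (1.49 ± 0.38), Rpl23a (1.43 ± 0.35) and Rplp0. Rplp0 had 818, 603, 1236 and 1252 CPM in A1/A2 libraries, against 397, 296, 410 and 395 CPM in EMP libraries (1.38 ± 0.24, edgeR adjusted p = 0.0032). Restricted to wells of 20000 to 60000, 56 of 75 were higher, with a median of 0.51. Thinned to 1000 transcripts a well, 7 of 67 were (median 0.26, against -0.01 over all genes).

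The same contrast of libraries was made in high-Apoa1 wells, the class marked by endoderm transcripts. The wells of the kinds were not alike in other markers. Macrophage markers summed to 61.7 to 209 transcripts per 1000000 in A1/A2 and 17.6 to 36.4 in EMP high-Apoa1 wells. The sums tested were small, from 3 to 9 wells a library in A1/A2 and 3 to 15 in EMP. Of 71 members tested 22 were higher in A1/A2 libraries and 0 lower (edgeR, adjusted over 3681 genes, of which 1.87% were higher and 0.109% lower, 1.98% in all). Members made up 22 of the 69 genes higher in this comparison, and pseudogene symbols a further 8. At an unadjusted p under 0.05 edgeR gave 0 members lower, and DESeq2 called 9 higher and 0 lower. The median was 0.41, against 0.00 over all genes. Rplp0 had 772, 513, 776 and 879 CPM in A1/A2 libraries, against 350, 227, 339 and 314 CPM in EMP libraries (1.27 ± 0.19, edgeR adjusted p = 1.0e-04). Rps10 had 813, 539, 821 and 628 CPM, against 416, 305, 233 and 288 CPM in EMP libraries (1.08 ± 0.19, edgeR adjusted p = 0.00054). None of the 24 members at or above 1000 per 1000000 was called (median 0.12), and 20 of the 41 at 300 to 1000 were (median 0.61). Of other genes at these levels, 2 of 61 and 16 of 264 were higher. Rpl4 (-0.14 ± 0.14) and Rpl5 (-0.26 ± 0.15) again gave values under 0 without a call. With single libraries left out the count was 5 to 27: it was 8 without A1/A2 library 3, 5 without A1/A2 library 4, and 10, 14 and 12 without EMP libraries 2, 3 and 4. It was 0 without wells above 60000, which left 2 A1/A2 sums.

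These comparisons use different wells of the same libraries, so they are not independent of each other's libraries. Whether the difference between A1/A2 and EMP libraries itself differs between classes of wells was not tested. Erythroid markers summed to 131 to 2828 transcripts per 1000000 in A1/A2 wells with Cx3cr1 and no Kit and 607 to 3622 in EMP wells with Kit and no Cx3cr1, and to 171 to 971 and 418 to 716 in high-Apoa1 wells. The 6 endothelial markers summed to 19.3 to 39.2 in A1/A2 Cx3cr1 wells and 270 to 499 in EMP Kit wells, and over all kept wells to 33.4 to 49.2 in A1/A2 and 147 to 336 in EMP libraries. The 5 granulocyte markers in the tables, of 7 listed, summed to 150 to 193 in A1/A2 Cx3cr1 wells and 55.9 to 89.9 in EMP Kit wells, and over all kept wells to 126.1 to 311 in A1/A2 and 32.7 to 56.4 in EMP libraries. Mitochondrially encoded transcripts took 17.4 ± 1.54% and 22.3 ± 1.01% in the first pair of classes and 18.02 ± 1.64% and 23.2 ± 0.80% in the second. The part of the marker lists and of these transcripts in the results was not tested. Kind of library and any difference in sorting or handling between the kinds cannot be told apart.

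**Figure D5:**
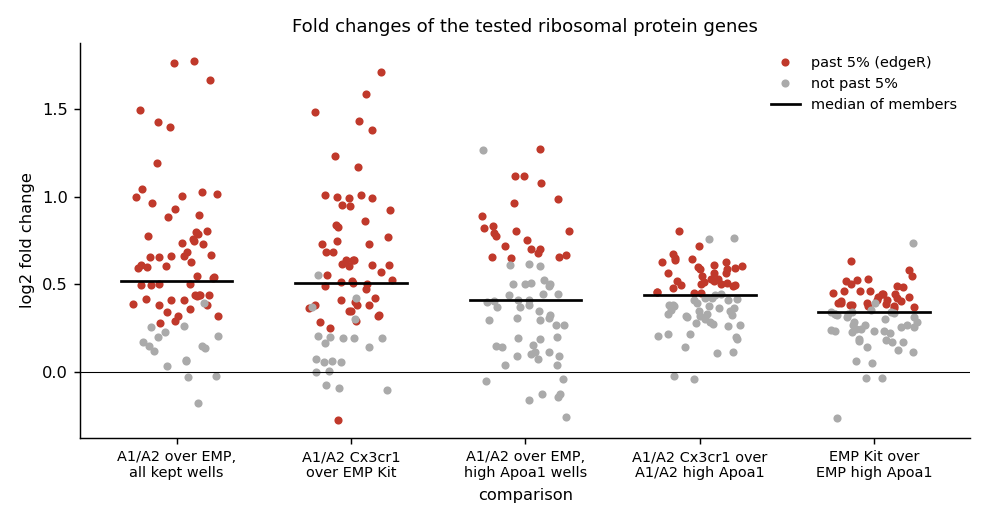
Log2 fold changes of the tested members in each of the 5 comparisons, with calls at 5% in red and the median of the members as a black line. The medians lie between 0.34 and 0.52, and the spread is wider in the 3 comparisons of A1/A2 with EMP libraries than in the 2 within a kind of library.

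Within the A1/A2 libraries, wells with Cx3cr1 and no Kit were compared with high-Apoa1 wells of the same libraries, to set wells with a blood cell mark against wells with an endoderm mark. Endoderm markers were found in both classes, at lower levels in the Cx3cr1 wells. Of 75 members tested 34 were higher in the Cx3cr1 wells and 0 lower (edgeR with library as a block, adjusted over 7858 genes, of which 17.4% were higher and 16.5% lower), and DESeq2 called 43 higher and 0 lower. At an unadjusted p under 0.05 edgeR gave 0 lower. The median was 0.44, against 0.09 over all genes. Here 19 of 24 members at or above 1000 per 1000000 were called (median 0.50), and 24 of 61 other genes at that level were higher (median 0.26). At 300 to 1000, 14 of 41 members were called (median 0.41). That is near the share of other genes at that level, of which 81 of 265 were higher (median 0.21). Among the highest calls were Rpl7l1 (0.80 ± 0.23), Rpl8 and Rpl28 (0.64 ± 0.19). Rpl8, a large subunit protein, had 1305, 1071, 1285 and 1320 CPM in Cx3cr1 wells, against 433, 767, 798 and 1006 CPM in high-Apoa1 wells (0.67 ± 0.19, edgeR adjusted p = 0.0020). The groups did not overlap, and A1/A2 library 1, with 3 high-Apoa1 wells, was the lowest. Rpl4 (0.48 ± 0.19) and Rpl5 (0.46 ± 0.19) were higher in this contrast. Of the stalk genes Rplp0 was higher (0.60 ± 0.19), and Rplp1 (0.26 ± 0.19) and Rplp2 (-0.02 ± 0.24) were not called. Without A1/A2 libraries 2, 3 and 4 in turn the count was 18, 12 and 12, and it was 65 with high Apoa1 set at 0.25%. Thinned to 1000 transcripts a well, 0 of 56 were called (median 0.13, against 0.08 over all genes).

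Within the EMP libraries, wells with Kit and no Cx3cr1 were compared with high-Apoa1 wells in the same way. Of 75 members tested 33 were higher in the Kit wells and 0 lower (edgeR with library as a block, adjusted over 8662 genes, of which 15.5% were higher and 15.1% lower), and DESeq2 called 37 higher and 0 lower. At an unadjusted p under 0.05 edgeR gave 0 lower. The median was 0.34, against 0.06 over all genes. Of the 24 most abundant members 17 were called (median 0.41), and 16 of the 41 at 300 to 1000 per 1000000 (median 0.34). Of other genes at these levels, 19 of 61 and 73 of 265 were higher (medians 0.08 and 0.07). Among the highest calls were Rps6, Rpl28 (0.55 ± 0.14), Rps23 (0.53 ± 0.14) and Rpl7 (0.52 ± 0.14). Rps6, the substrate of the S6 kinases, had 2022, 2187, 1895 and 2078 CPM in Kit wells, against 1451, 1702, 1014 and 1300 CPM in high-Apoa1 wells (0.58 ± 0.14, edgeR adjusted p = 0.00021). The groups did not overlap, and EMP library 3, with 3 high-Apoa1 wells, was the lowest. Of the stalk genes Rplp0 was higher (0.43 ± 0.16), and Rplp1 (0.17 ± 0.14) and Rplp2 (0.06 ± 0.31) were not called. The count was 8 and 7 without EMP libraries 1 and 4, 19 without the block, and 69 with high Apoa1 set at 0.25%.

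Across members, fold change and level had a positive relation in both comparisons within a kind of library (Spearman's rho 0.34 and 0.53 over 75 members) and a negative one in the 3 comparisons of A1/A2 with EMP libraries (-0.73, -0.74 and -0.66 over 76, 75 and 71 members). These are descriptions, since genes are not independent replicates and the comparisons share libraries. Rps24 and Rps6, chosen after their values were seen, show the contrast. Rps24, a Diamond-Blackfan gene, had a log2 fold change of 0.79 ± 0.11 between A1/A2 and EMP libraries (edgeR adjusted p = 0.00034), but 0.14 ± 0.19 and 0.18 ± 0.15 in the comparisons within a kind, which gave no call. Rps6 had the reverse pattern, at 0.15 ± 0.08 between libraries and 0.64 ± 0.19 and 0.58 ± 0.14 within them.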

How the data were processed

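Per the labels' protocols, yolk sac cells with CD45 on their surface were sorted one to a well for mCEL-Seq2. The authors deposited estimated counts of transcripts with no scaling: undoing the usual correction for 4096 identifiers returned whole numbers for 100% of values (tolerance 1e-06). A deposited series table of the same expected counts held 689 wells of A1/A2 libraries, and 0 of them differed from the per-library tables. BWA 0.6.2-r126 and Seurat are named per the submitters' processing notes. The genome build is not given in the sources used here.

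Wells with at least 1000 transcripts were added up by library, or by class within a library where it had at least 3 wells, and rounded. Sums were tested with edgeR 4.0.16 (TMM, filterByExpr, robust quasi-likelihood fit) in R 4.3.3, adjusted over all genes tested. As the SE, the size of the log2 fold change over the root of its F statistic was used. Comparisons within a kind of library had library as a block, and Kit, Cx3cr1 and Apoa1 were left out of all comparisons of classes. DESeq2 1.42.0 was an alternative. Fits were tested on simulated counts. Precision is set by the depth of the sums, and no interval for counting error was computed. The titles give both kinds the same library numbers but do not say what a number stands for, so numbers were not taken as pairs between kinds. Deviations of libraries with the same number correlated at 0.23, 0.41, -0.02 and 0.23, and of libraries with different numbers at -0.30 to 0.19. A pairing by number is thus possible, and counts with number as a block are given below.

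Members, gene lists and classes were chosen with earlier results of these data known. The rule for named genes took the 5 largest calls in each direction, the 10 most abundant members, paralogs with their partners, stalk, 5S and Diamond-Blackfan genes, and core genes outside the pattern. Other genes named are examples chosen after their values were seen. Rpl7a, Rpl24, Rpl29, Rps2 and Rps4x are not analysed here. Values of a few other members and core genes are not reported here.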

Additional observations from a re-analysis of the deposited data

Results flagged for a closer look

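Of 103 groups of 4 libraries examined, 8 held a library far from the other 3, and chance alone flags about 1 in 20 groups. EMP library 2 accounted for 5 of them, being low for Rpl10 (6.997 CPM), Rpl22 (397 CPM) and Rps26 (587 CPM) and high for Rpl23 (2410 CPM) and Rps23 (1983 CPM). EMP library 3 was low for Rplp2 (15.4 CPM), and A1/A2 library 1 was high for Rps6 (2046 CPM). In EMP wells with both Kit and Cx3cr1, library 1 stood above the others with a summed share of 8.37%, from 6 wells.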

How the results depend on the processing

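Between A1/A2 and EMP libraries (59 members higher), the count was 54 to 60 with single libraries left out, 11 with wells thinned to 1000 transcripts, 1 in wells of 1000 to 5000 and 11 in wells of 5000 to 20000. For A1/A2 Cx3cr1 wells over EMP Kit wells (54) it was 43 to 56, and 7 thinned. For A1/A2 high-Apoa1 wells over EMP high-Apoa1 wells (22) it was 5 to 27, and 9 without a filter, 9 by DESeq2, 5 at a minimum total of 2000, 0 without wells above 60000, 0 thinned and 46 with high Apoa1 at 0.25%. For A1/A2 Cx3cr1 over high-Apoa1 wells (34) it was 12 to 41, and 52 with DESeq2 size factors, 13 at a minimum of 2000, 22 without wells above 60000, 0 thinned and 65 at 0.25%. For EMP Kit over high-Apoa1 wells (33) it was 7 to 35, and 53 without wells above 60000, 11 thinned, 19 without the replicate block and 69 at 0.25%. The cause was not tested. A minimum of 2000, the removal of wells above 60000 and thinning leave fewer or smaller sums by construction, and thinning gives every well the same weight. On thinning the member median went from 0.52 to 0.24 between A1/A2 and EMP libraries. It went from 0.51 to 0.26 for A1/A2 Cx3cr1 over EMP Kit wells. Against high-Apoa1 wells it went from 0.44 to 0.13 for A1/A2 Cx3cr1 wells and from 0.34 to 0.42 for EMP Kit wells. The share of all genes called in each setting is not given here.

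The summed share averaged 5.73% in A1/A2 and 5.19% in EMP libraries as a mean over wells, and 9.25% and 7.44% without mitochondrially encoded transcripts; with single libraries left out it was 7.21 to 7.65% and 5.42 to 5.69%. Of 3842 alternative values of named genes, 3472 kept direction and side of the threshold, 254 were no longer past it, 103 were newly past it and 13 reversed. Between libraries these were Gnb2l1 in wells of 1000 to 5000 (-0.10), Rpl28 thinned (-0.046) and in wells of 5000 to 20000 (-0.23), and Rpl7l1 thinned (-0.29). The others reversed on thinning: Rpl26 (-0.13), Rps19 (-0.069), Rps23 (-0.31) and Rps3a1 (-0.406) for A1/A2 Cx3cr1 over high-Apoa1 wells, Rpl11 (-0.12) for EMP Kit over high-Apoa1 wells, and Rpl26 (-0.10), Rpl28 (-0.056), Rpl35a (-0.010) and Rpl39 (-0.022) for A1/A2 Cx3cr1 over EMP Kit wells. With the replicate block between kinds of library, the counts were 63, 57 and 15. Libraries 1, 2 and 4 of either kind correlated best with their own number in the other, and library 3 did not. Depth limits the high-Apoa1 sums most. High Apoa1 at 1%, and wells of 20000 to 60000 alone, gave no value for some comparisons of high-Apoa1 wells, which had too few sums.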
